A study of Mus musculus with 2 samples.

Results

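The 38 genes described here are textbook markers of dividing cells, 16 that peak while DNA is copied in S phase and 22 that peak in G2 phase and mitosis (G2/M). All 38 symbols were found, each in 1 row, among the 31053 genes of both single-cell matrices. They form a list of names, with no threshold on a measured value.

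The samples are 2 droplet libraries of CD45+ immune cells sorted from tumours of C57BL/6 mice, 1 library from WT mice and 1 from mice with a conditional knockout of Ythdf2 (Ythdf2 cKO), which encodes a reader of the m6A mark on RNA. The labels name neither the promoter that drives the deletion nor the tumour line, the age or the number of mice. After removal of poor and doublet barcodes, 10992 cells of the library labelled WT and 9086 of the library labelled cKO were kept, with medians of 5128 and 7998 UMIs (unique transcript molecules) per cell, and 43 barcode sequences occurred in both libraries. With 1 library per label no difference has a replicate check. Intervals below are 95% intervals for counting error only, and 1.5-fold is used as a size, not as a test. Intervals of gene levels and their ratios treat the UMIs of a cell as independent and are too narrow. Cells were assigned to a class by UMIs of marker genes per 10000 UMIs, which gave 1407 and 339 macrophages (WT and cKO), 1657 and 2157 monocytes, 598 and 1618 CD8 T cells, 270 and 206 Foxp3 T cells and 1092 and 1521 NK cells. The macrophage class of the cKO library held 45.8 UMIs per 10000 of monocyte markers against 12.1 in WT, and 90.3 of macrophage markers against 138, so it lay nearer to monocytes.

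Ythdf2 itself does not follow the labels in myeloid cells. Its level was 83.7 counts per 1000000 UMIs (CPM) in WT macrophages and 458 CPM in cKO macrophages, and 52.3 and 386 CPM in monocytes. In CD8 T cells it was 52.6 and 67.0 CPM. Reads from the 5′ end of a transcript can lie outside the deleted part, so this level does not show whether the deletion took place, and every direction below is between libraries as labelled.

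The S-phase genes cover the copying of DNA. Cdc6 and the MCM helicase are loaded on replication origins, Cdc45 and Gins2 switch the helicase on, Pcna is the clamp that holds polymerases on DNA and Pclaf binds it, and Tyms, Rrm1, Rrm2, Dut and Tk1 supply or protect the nucleotide pool. The G2/M genes cover division. Cyclins A2, B1 and B2 bind the kinase Cdk1, the kinases Plk1, Aurka, Aurkb and Bub1 build and check the spindle, motor and spindle proteins move the chromosomes, and Cdc20 and Ube2c serve the ubiquitin ligase that ends mitosis. Many tissue macrophages and activated T cells can divide locally, whereas neutrophils and Ccr7+ mature dendritic cells have left the cycle.

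Promoters are shown because the members of a list had ratios on the same side in macrophages and, but for Cdca3, in CD8 T cells. E2F factors are known to act on S-phase genes through E2F sites, and the DREAM and MuvB complexes and NF-Y on mitotic genes through the CHR element and CCAAT boxes. The 250 bases before the RefSeq start site (build GRCm38.p6) were available for 33 members in 35 windows, and were searched on both strands for the E2F word TTGGCGC with its variants, the form TTCCCGC, the form TTGCCGC and the form TTCGCGC, for the CHR word TTTGAA, and for the word CCAAT. Matches may overlap each other. An E2F word was in 7 of 15 S windows (6 of 14 genes) and 4 of 20 G2/M windows, against 7.89% of all 32851 promoter windows. Those S windows include both of Mcm7 and that of Cdc6, which lie inside the gene as described below. The CHR word was in 2 of 15 S windows and 8 of 20 G2/M windows, against 16.0% of all. CCAAT was in 11 of 15 and 18 of 20, against 33.8% of all. Of the 35 windows, 6 lay wholly inside the interval that GENCODE gives the gene (4 S windows, of Mcm7, Cdc6 and Dut, and 2 G2/M windows, of Cdca8 and Cdca3), downstream of the annotated start. A match is a description of these letters and not a binding site. Mcm6 carried 4 E2F matches in 2 overlapping pairs, Cdk1 all 3 kinds of word, and Ube2c the CHR word with 6 CCAAT matches, 2 of which overlap. In the windows below (chr1:128359706-128359955 on the minus strand for Mcm6, chr10:69352913-69353162 on the minus strand for Cdk1, chr2:164769679-164769928 on the plus strand for Ube2c), read 5′ to 3′ towards the gene, capitals mark the matched words.
Mcm6: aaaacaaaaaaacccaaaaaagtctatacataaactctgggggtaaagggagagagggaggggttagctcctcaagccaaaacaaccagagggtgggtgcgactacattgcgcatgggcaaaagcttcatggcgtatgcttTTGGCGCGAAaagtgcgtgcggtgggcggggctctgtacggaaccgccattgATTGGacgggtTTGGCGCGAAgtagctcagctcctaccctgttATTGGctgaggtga
Cdk1: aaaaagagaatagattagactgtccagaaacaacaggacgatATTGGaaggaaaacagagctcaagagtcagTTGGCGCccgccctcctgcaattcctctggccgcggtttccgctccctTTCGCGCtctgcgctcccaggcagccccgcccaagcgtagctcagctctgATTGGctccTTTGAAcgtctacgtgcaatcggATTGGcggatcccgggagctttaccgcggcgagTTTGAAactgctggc
Ube2c: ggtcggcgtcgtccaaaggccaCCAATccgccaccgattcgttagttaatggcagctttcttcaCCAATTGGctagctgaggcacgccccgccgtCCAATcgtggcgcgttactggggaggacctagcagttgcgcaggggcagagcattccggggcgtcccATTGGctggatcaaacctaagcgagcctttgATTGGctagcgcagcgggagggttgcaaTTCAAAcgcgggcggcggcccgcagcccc

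To count dividing cells at equal depth, each cell was thinned to 2000 UMIs and called cycling when at least 3 different S genes or at least 3 different G2/M genes were seen. Cells below 2000 UMIs were left out, 100 and 25 macrophages, 23 and 45 monocytes, 10 and 21 CD8 T cells, 15 and 12 Foxp3 T cells, and 57 and 13 NK cells (WT and cKO). The background was 0 of 43 neutrophils in WT and 0 of 37 in cKO, and 0 of 58 and 0 of 39 mature dendritic cells, which allows shares of up to 6.98%, 8.11%, 5.17% and 7.69%. Neutrophils were shallow, with median depths of 1725 and 3011 UMIs before thinning and 96 and 5 of them left out. Mature dendritic cells had 5831 and 10215 UMIs.

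Macrophages of the WT library were the most proliferative of the 5 classes in that library, and those of the cKO library were not. In WT, 492 of 1307 macrophages were cycling, 37.6% (95% Clopper-Pearson interval 35.0 to 40.3). In cKO, 31 of 314 were, 9.87% (6.81 to 13.7), which is 3.81-fold lower (2.71 to 5.36). The cKO interval includes the limits that the cKO neutrophils and mature dendritic cells allow, so the cKO share is not clearly above background. The unthinned shares were 64.9% and 34.8%, at medians of 12818 and 13381 UMIs per cell. The intervals of the libraries do not overlap at either depth. Unthinned mature dendritic cells stood at 13.6% in WT and 28.3% (16.0 to 43.5) in cKO. The unthinned cKO macrophage share lay within that cKO interval, so it is not read as a share of dividing cells. Of the WT macrophages, 118 cycling cells stood at exactly 3 genes and 159 others at 2, so the cut divides a range.

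T cells and NK cells lay closer together. Among CD8 T cells 74 of 588 were cycling in WT, 12.6% (10.0 to 15.5), and 281 of 1597 in cKO, 17.6% (15.8 to 19.6), a ratio of 1.40 (1.10 to 1.77). Before thinning, at medians of 4771 and 7092 UMIs per cell, these shares were 30.1% and 49.6%. Among Foxp3 T cells, the regulatory T cells, 47 of 255 were cycling in WT, 18.4% (13.9 to 23.7), and 41 of 194 in cKO, 21.1% (15.6 to 27.6). Their ratio of 1.15 (0.79 to 1.67) does not separate the libraries, and before thinning the shares were 28.5% and 45.6%. Among NK cells 76 of 1035 were cycling in WT, 7.34%, and 81 of 1508 in cKO, 5.37%, a ratio of 0.73 (0.54 to 0.99). Before thinning the order was the other way, 17.5% and 28.1%, with medians of 3458 and 5710 UMIs per cell. The cKO share of NK cells lay under the limits that the cKO neutrophils and mature dendritic cells allow, and the WT share under the WT neutrophil limit. The unthinned cKO share lay at the 28.3% of cKO mature dendritic cells. No order between libraries is therefore read from the NK shares. Monocytes hardly divided in either library, with 19 of 1634 cells in WT, 1.16% (0.70 to 1.81), and 9 of 2112 in cKO, 0.43% (0.20 to 0.81), under the limit that the neutrophils allow. Before thinning monocytes stood at 7.97% and 12.8%, beside 13.6% and 28.3% in mature dendritic cells, so the unthinned monocyte values are at background.

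**Figure D1:**
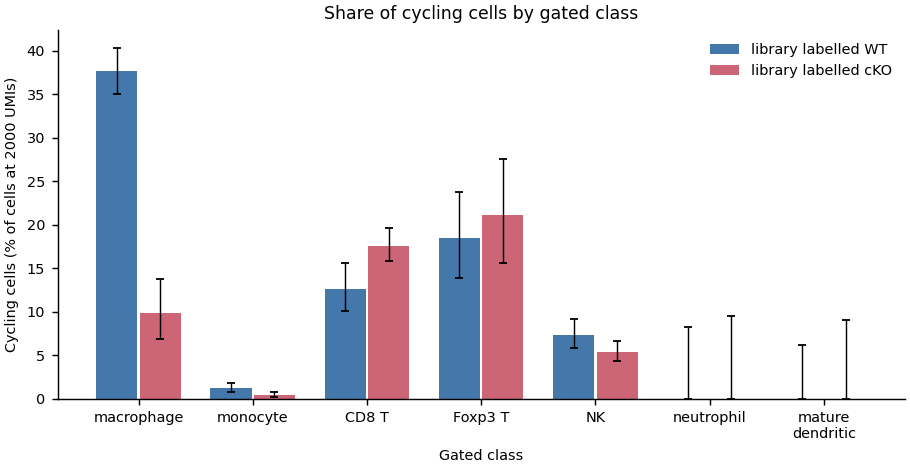
Percent of cells called cycling (y axis) in each gated class (x axis) after thinning to 2000 UMIs, for the library labelled WT (blue) and the library labelled cKO (red), with 95% Clopper-Pearson intervals for counting error. Macrophages stand at 37.6% and 9.87%, CD8 T cells at 12.6% and 17.6%, and neutrophils and mature dendritic cells at 0.

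The make-up of the dividing pool differed between libraries. Macrophages were 35.7% of the 1378 cycling cells in WT and 4.75% of the 653 in cKO. CD8 T cells were 5.37% and 43.0%. NK cells were 5.52% and 12.4%, and 48.3% and 32.2% of cycling cells fell in no gate. Over all kept cells 13.9% were cycling in WT and 7.48% in cKO, and 26 of 36 members above the low-value filter used below were at least 1.5-fold lower in cKO with none higher (background 9.79% lower and 7.12% higher). Since the gates hold different numbers of cells in each library, these make-up values move with class size as well as with the share that divides.

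In macrophages, every member above the low-value filter was at least 1.5-fold lower in the cKO library. That was 36 of 36 members with a mean of at least 10 CPM, against 11.8% of 7520 genes at least 1.5-fold lower and 9.68% at least 1.5-fold higher in the same comparison. Cdc6 and Cdc45 fell under the filter and were lower as well (13.1 to 3.44 CPM and 9.41 to 2.54 CPM). The median log2 ratio was -1.64 for the S list and -1.39 for the G2/M list, against -0.10 over all genes. The summed S list was 1035 CPM in WT and 358 CPM in cKO, and the summed G2/M list 1554 and 558 CPM. With the gate thresholds doubled 32 of 36 were at least 1.5-fold lower.

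Among the helicase genes, Mcm6 was 91.6 CPM in WT and 25.4 CPM in cKO, 3.61-fold lower (3.04 to 4.32), and the 6 Mcm genes ranged from 2.69-fold (Mcm4) to 3.61-fold. Gins2 was 35.4 and 14.0 CPM, 2.54-fold lower. The ribonucleotide reductase subunit Rrm2 was 43.2 and 10.7 CPM, 4.04-fold lower (3.10 to 5.35), and Dut, the dUTPase that keeps uracil out of DNA, was 66.6 and 14.7 CPM, 4.54-fold lower (3.63 to 5.75). Dut and Rrm2 lay furthest down on the S list. Tyms, Rrm1 and Tk1 were 2.93-, 3.36- and 3.02-fold lower, and Pclaf 3.56-fold. Pcna stood apart from these, at 132 CPM in WT and 84.5 CPM in cKO, only 1.57-fold lower (1.42 to 1.73).

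In WT macrophages Pcna was also the member least tied to cycling cells. At 2000 UMIs, 58.6% of Pcna UMIs came from cycling cells, and in cKO 17.6%. For Mki67, the proliferation antigen Ki-67, the values were 90.7% and 66.7%. Outside cycling cells Pcna stood at 0.18 UMIs per macrophage in WT and 0.15 in cKO, so the part of Pcna that lay outside the cycling cells was nearly level between libraries.

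On the G2/M list, the cyclin genes Ccna2, Ccnb2 and Ccnb1 were 3.64-, 2.95- and 2.71-fold lower in cKO macrophages, and Cdk1, their kinase, was 73.9 and 30.1 CPM, 2.46-fold lower. The mitotic motor Kif11 was 34.0 and 7.61 CPM, 4.47-fold lower (3.27 to 6.26), the furthest down of this list. Plk1 was 31.9 and 16.1 CPM, 1.97-fold lower (1.58 to 2.49), the least. The kinetochore genes Cenpe and Cenpf were 2.17- and 2.41-fold lower, the spindle genes Tpx2, Nusap1, Prc1 and Hmmr 2.49-, 2.76-, 2.55- and 3.23-fold. The chromosomal passenger genes Birc5, Cdca8 and Aurkb were 2.67-, 2.64- and 3.15-fold lower, with Aurka and Bub1 at 2.40- and 2.69-fold. Cdc20 and Ube2c were 2.74- and 2.76-fold lower. Mki67 was 204 and 64.7 CPM, 3.16-fold lower, and Top2a, which untangles sister DNA, 192 and 64.7 CPM, 2.96-fold lower. The genes of licensing, nucleotide supply, mitotic entry and mitotic exit were thus all lower, within a range of log2 ratios from -2.11 to -0.64.

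**Figure D2:**
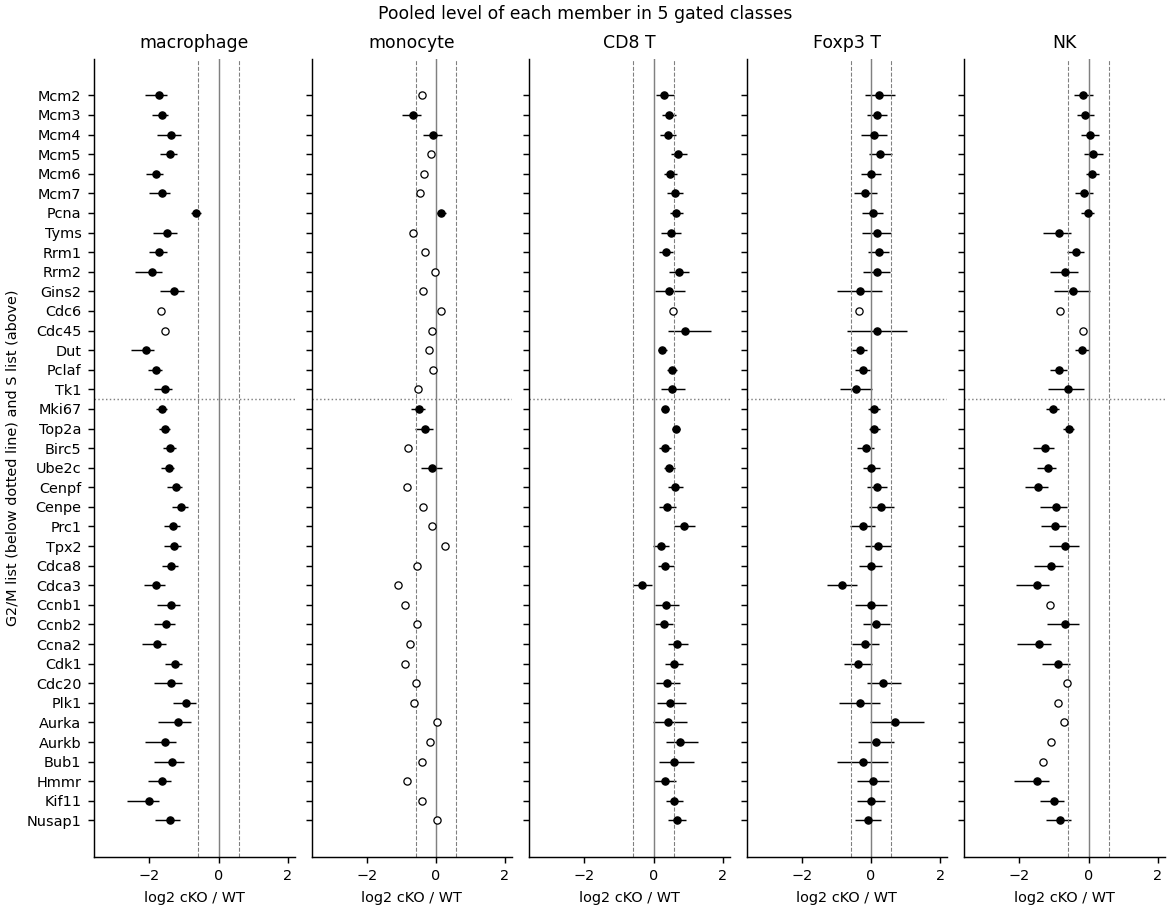
Log2 ratio of the pooled level, cKO over WT (x axis), for each of the 38 members (y axis, S list above the dotted line and G2/M list below it) in 5 gated classes. Filled points passed the low-value filter and carry 95% counting intervals, open points did not, and dashed lines mark 1.5-fold. All macrophage points lie below 0, the CD8 T points other than Cdca3 lie above 0, and in NK cells the S list lies nearer to 0 than the G2/M list.

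In cKO macrophages the share of cycling cells was lower, while member UMIs per cycling cell at 2000 UMIs lay near WT. A cycling macrophage held 9.96 member UMIs per 2000 in WT (SD over cells 5.84) and 9.26 in cKO (SD 5.21), a ratio of 0.93. Other macrophages held 1.00 and 0.57. Member UMIs per macrophage, cycling or not, were 4.37 and 1.43, 3.06-fold lower. Of all member UMIs in the class, 85.8% came from cycling cells in WT and 63.9% in cKO. The ratio per cycling cell was 0.80 at 1000 UMIs, 0.91 at 4000 UMIs and 0.66 in cells not thinned. It was 0.78 with 2 or more genes and 1.02 with 4 or more. The comparison uses the members both to pick cycling cells and to measure them, and it is a description. Asking for at least 3 genes sets a floor under the member UMIs of a called cell. The values therefore do not apportion the pooled difference.

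The share of cycling cells climbed with C1q level in both libraries and was lower in cKO within each range above 20. C1qa, C1qb and C1qc are complement genes that mark mature macrophages. Among lineage cells with 20 to 50 C1q UMIs per 10000, 19.5% (15.1 to 24.6) were cycling in WT and 4.32% (1.75 to 8.70) in cKO. From 50 to 100 the shares were 40.3% (36.2 to 44.5) and 10.2% (5.0 to 18.0). At 100 and over they were 45.9% (41.3 to 50.5) and 29.2% (17.0 to 44.1), where the intervals meet and only 48 cKO cells could be counted. Below 20, no range exceeded 4.0% in WT or 2.54% in cKO. The cKO shares below 50 lay under the limits that the cKO neutrophils and mature dendritic cells allow. The cKO interval from 50 to 100 includes those limits, so the climb in cKO rests on the range of 100 and over. With the cKO shares in these 3 ranges weighted by the WT numbers of cells, the cKO share was 15.6% in place of 10.1%, against 37.7% in WT.

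**Figure D3:**
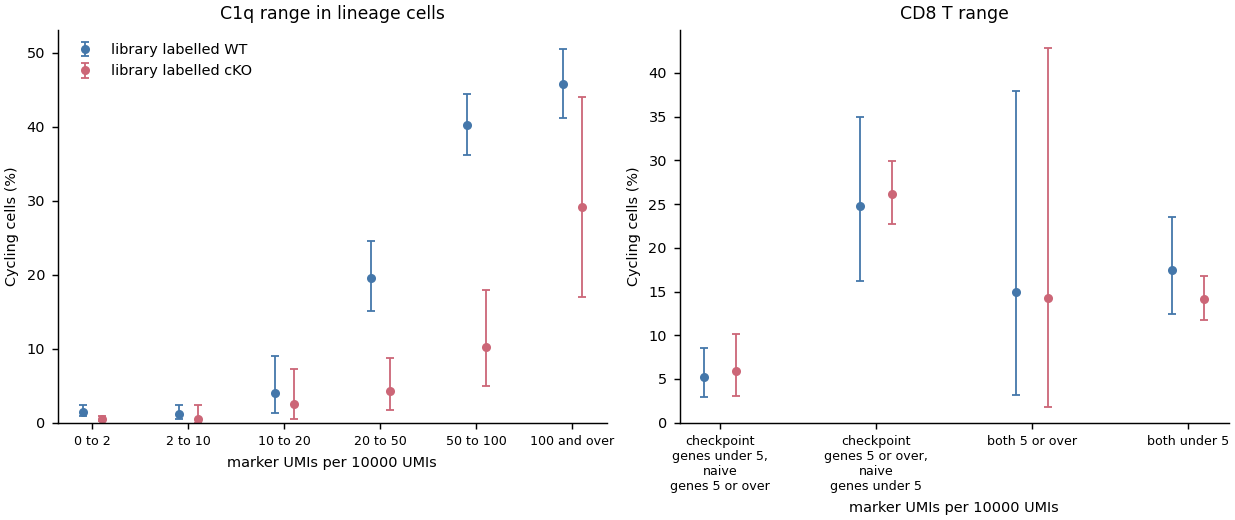
Percent of cells called cycling (y axis) with 95% Clopper-Pearson intervals, by range of C1q UMIs per 10000 among monocyte and macrophage lineage cells (left) and by range of checkpoint and naive gene UMIs among CD8 T cells (right), for the library labelled WT (blue) and the library labelled cKO (red). On the left the cKO points lie below WT in every range from 20 upward; on the right the checkpoint-high ranges stand at 24.7% and 26.2%.

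Other replication and mitosis genes were lower together with the members in macrophages, and genes of the G1 phase and brakes were mixed. The counts of each list stand against 11.8% of all genes lower and 9.68% higher. Of 19 other replication genes above the filter 17 were at least 1.5-fold lower and none higher, with a median log2 ratio of -1.22. Lig1, the ligase that joins Okazaki fragments, was 61.4 and 13.8 CPM, and Cdt1 44.8 and 29.4 CPM. Of 31 other mitosis genes 27 were lower and 0 higher (median -1.36), with Stmn1, a microtubule regulator, at 283 and 72.5 CPM. Among 12 G1 cyclin, CDK and E2F genes 5 were lower and 2 higher, 9 had ratios below 0, and the median of -0.53 lay below the -0.10 of all genes. The D-type cyclin Ccnd1 was 331 and 226 CPM, short of 1.5-fold, and Ccnd2 was 79.3 and 140 CPM, past it upward. Among 12 brakes 3 were lower and 3 higher, with a median of -0.04. Cdkn1a, the p21 inhibitor, was 369 and 593 CPM, and the antiproliferative genes Btg1 and Btg2 were 592 and 1076 CPM and 182 and 326 CPM. Gmnn, the licensing inhibitor made in S phase and G2, was 84.9 and 26.7 CPM.

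Genes that were not used to find the cycling macrophages marked them in both libraries. Replication-dependent histones led, with Hist1h1b at 209 CPM in cycling and 11.1 CPM in other WT macrophages, and at 158 and 3.54 CPM in cKO. Hist1h2ap, Hist1h2ae, Hist1h3c, Hist1h4d and Hist1h1e were on the same list of 10, with Knstrn and Spc24 of the kinetochore, Cdkn3 and H2afx. Of 32 genes on the other cell cycle lists with at least 50 CPM in cycling macrophages, 23 were at least 2-fold higher in cycling than in other cells in both libraries. Monocyte genes ran the other way. Monocyte markers summed to 6.14 UMIs per 10000 in cycling and 16.9 in other WT macrophages. In cKO they summed to 13.6 in cycling and 50.6 in other macrophages. The macrophage marker sums were 137 and 139 in WT, nearly level, but 134 in cycling and 84.1 in other macrophages of cKO.

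At 2000 UMIs the phases of cycling macrophages overlapped between libraries, and the unthinned calls do not show the phase of dividing cells. In WT, 161 of the 492 cells had S genes only, 132 both lists and 199 G2/M genes only. In cKO the numbers were 13, 10 and 8 of 31. The S-only share was 32.7% (28.6 to 37.1) and 41.9% (24.5 to 60.9), and the intervals overlap. Without thinning, at near-equal median depths, 27.2% of 913 macrophages called cycling in WT and 55.9% of 118 in cKO had S genes only. The unthinned cKO macrophage share lay within the interval of cKO mature dendritic cells. Unthinned monocytes, at background, had S genes only in 67.4% (WT) and 79.6% (cKO) of calls. No phase difference of dividing macrophages is therefore read from the unthinned values. The S list held 37.1% and 39.0% of member UMIs in cycling cells at 2000 UMIs, and over all macrophages 41.1% (39.8 to 42.4) and 49.4% (44.7 to 54.2). These intervals treat UMIs as independent and are too narrow, since 31 cycling cells held 63.9% of the cKO member UMIs. The value over all macrophages also moves with the share of cycling cells, so no phase difference is read from it. Genes that did not set the phase, 9 on the replication side and 9 of mitosis, were picked by hand from the other cell cycle lists. No rule set the choice, so they do not stand for those lists. All 9 replication-side genes examined, with the G1 genes Ccne1, Ccne2 and E2f1 among them, were higher in S-only than in G2/M-only WT macrophages. In cKO 8 of 9 were, from 13 and 8 cells and few UMIs (Ccne1 3 and 0, Uhrf1 7 and 5). All 9 picked mitosis genes were higher in G2/M-only cells in WT and 8 of 9 in cKO. Cdt1, for one, was 86.8 CPM in S-only and 33.6 CPM in G2/M-only WT macrophages, and Hmgb2, a chromatin protein, 330 and 796 CPM.

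**Figure D4:**
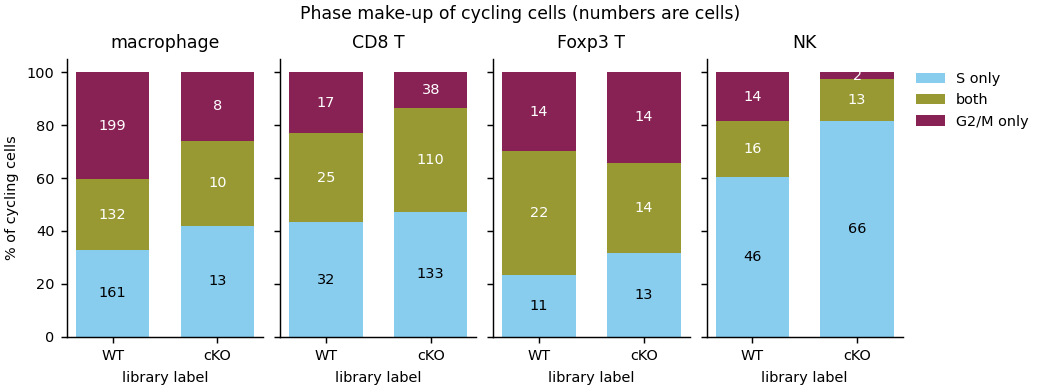
Percent of cycling cells (y axis) with S genes only, both lists, or G2/M genes only, in each library (x axis) for 4 classes, with cell numbers printed in the bars. In NK cells the G2/M-only part is 14 of 76 cells in WT and 2 of 81 in cKO.

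In CD8 T cells the members were modestly higher in the cKO library. Of 37 members above the filter 13 were at least 1.5-fold higher and 0 lower, against 5.97% and 3.55% of 7471 genes. The median log2 ratio was 0.49 for the S list and 0.44 for the G2/M list, against 0.07 over all genes. Top2a was 195 CPM in WT and 304 CPM in cKO, a ratio of 1.56 (1.44 to 1.69). Prc1, which bundles the central spindle, was 31.0 and 57.7 CPM, a ratio of 1.86 (1.52 to 2.29), and Cdc45 7.47 and 15.0 CPM, a ratio of 2.01 (1.34 to 3.15). Mcm5, Mcm7, Pcna and Rrm2 on the S list and Cenpf, Ccna2, Aurkb, Bub1, Kif11 and Nusap1 on the G2/M list were the others past 1.5-fold. Mki67 was 192 and 241 CPM, short of that size.

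The size of the difference in CD8 T cells depended on which cells of the gate were counted. Cells with checkpoint genes (Havcr2, Pdcd1, Lag3, Entpd1) at 5 or more UMIs per 10000 and naive genes (Tcf7, Ccr7, Lef1) under 5 were 92 of 598 in WT and 601 of 1618 in cKO, and their cycling shares were 24.7% (16.2 to 35.0) and 26.2% (22.7 to 29.9). Cells with naive genes alone were 285 and 204, with cycling shares of 5.28% (2.99 to 8.56) and 5.94% (3.11 to 10.1). Cells low in both sets cycled at 17.4% (12.4 to 23.5) and 14.1% (11.8 to 16.8). The intervals of the libraries overlap in each of these ranges. Counted at the WT numbers of cells in these ranges, the cKO share was 12.01%, beside 12.6% in WT. When cells with naive genes at 5 or over were left out, an alternative chosen after seeing the data, the shares were 19.7% in WT and 19.3% in cKO, only 1 member was at least 1.5-fold higher, and the median log2 ratio of the members was 0.042. Macrophage markers in the CD8 T gate summed to 3.13 UMIs per 10000 in WT and 0.60 in cKO, and their part in the result was not tested.

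Cycling CD8 T cells held 13.9 member UMIs per 2000 in cKO (SD over cells 11.0) and 11.6 in WT (SD 9.38), a ratio of 1.20. The ratio was 1.05 at 1000 UMIs, 1.02 at 4000 UMIs and 1.38 in cells not thinned. It was 1.29 with 2 or more genes and 1.18 with 4 or more. The members both pick and measure these cells, so this is a description. Their phases were 32 S-only, 25 both and 17 G2/M-only cells in WT and 133, 110 and 38 in cKO. The S-only shares were 43.2% (31.8 to 55.3) and 47.3% (41.4 to 53.4), with overlapping intervals. Outside the members, Hist1h1b led the genes of cycling CD8 T cells (414 against 11.1 CPM in WT, 408 against 9.83 CPM in cKO), with Cit, Spc24, Hist1h2ae, Knl1, Diaph3, Hist1h2ap, Hist1h3c, Ncaph and Cdkn3 next. Other replication genes were higher in 5 of 19 and lower in 0, and other mitosis genes higher in 2 of 31 and lower in 0. Against 5.97% of all genes higher, the mitosis count is near the background, while the median log2 ratios were 0.45 and 0.35 against 0.07 over all genes. Cdk6 was 81.6 and 136 CPM, and the 2 most abundant D-type cyclins were nearly level, with Ccnd2 at 313 and 305 CPM and Ccnd3 at 129 and 141 CPM.

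In NK cells the G2/M list differed more between the libraries than the S list. On the G2/M list 15 of 16 members above the filter were at least 1.5-fold lower in the cKO library, and on the S list 4 of 14, against 2.31% of 7538 genes lower and 1.06% higher. The median log2 ratio was -1.02 for the G2/M list and -0.17 for the S list, against -0.06 over all genes. The helicase genes were nearly level, with Mcm6 at 80.0 and 86.3 CPM, a ratio of 1.08 (0.95 to 1.22), and Mcm5 at 35.2 and 38.6 CPM. Pcna was 81.4 and 79.8 CPM. Tyms, Rrm2, Pclaf and Tk1 were the S genes past 1.5-fold. Cenpf was 41.6 and 14.6 CPM, 2.85-fold lower (2.28 to 3.58), Hmmr 18.4 and 5.90 CPM, 3.12-fold lower (2.2 to 4.46), and Mki67 101 and 49.6 CPM, 2.05-fold lower (1.79 to 2.33). Top2a, at 116 and 77.6 CPM, was the 1 member of this list above the filter that did not reach 1.5-fold on the log2 scale with the pseudocount. Macrophage markers in the NK gate summed to 3.24 UMIs per 10000 in WT and 0.67 in cKO, and melanocytic markers to 0.86 and 0.095. T cell markers (0.073 and 0.16) and monocyte markers (10.0 and 11.3) ran the other way. The part of RNA from other cells in the NK result was not tested.

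The NK cells called cycling differed by phase in the same direction. Their cKO share lay under the limits that the cKO neutrophils and mature dendritic cells allow, as did the G2/M shares given here. These values describe the calls, and no phase difference of dividing NK cells is read from them. In WT 46 cells had S genes only, 16 both and 14 G2/M genes only. In cKO 66 had S genes only, 13 both and 2 G2/M genes only. The S-only share was 60.5% (48.6 to 71.6) and 81.5% (71.3 to 89.2), and the S list held 44.8% (41.1 to 48.6) and 58.2% (54.1 to 62.2) of member UMIs in cycling cells. The intervals of the UMI shares treat UMIs of a cell as independent and are too narrow. Cells with at least 3 G2/M genes were 2.90% of WT and 0.99% of cKO NK cells. NK cells with granzyme B (Gzmb at 2 or more UMIs per 10000) were 431 of 1092 in WT and 992 of 1521 in cKO. In this range 13 of 401 in WT (3.24%, 1.74 to 5.48) and 4 of 984 in cKO (0.41%, 0.11 to 1.04) had 3 or more G2/M genes. Among NK cells with less Gzmb the values were 2.68% (1.57 to 4.26) and 2.10% (1.05 to 3.73), and their intervals overlap. Whether the 2 Gzmb ranges differ in this was not tested. Other mitosis genes were lower in 6 of 18 and other replication genes in 5 of 16, with none higher in either list, against 2.31% of all genes lower and 1.06% higher.

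Foxp3 T cells held the members at like levels in both libraries, although they divided often. Of 37 members above the filter 1 was at least 1.5-fold higher and 1 lower, against 5.08% and 5.1% of 7818 genes. The median log2 ratio was 0.08 for the S list and 0.01 for the G2/M list. Mki67 was 333 and 350 CPM, a ratio of 1.05 (0.94 to 1.18), Top2a 347 and 370 CPM, and Mcm6 122 and 122 CPM. Aurka, the centrosome kinase, was the member past 1.5-fold upward at 14.4 and 24.0 CPM, from 22 and 45 UMIs, and its ratio of 1.67 (0.98 to 2.92) includes 1. The phases were 11, 22 and 14 cells in WT and 13, 14 and 14 in cKO. In monocytes 6 members passed the filter and 1, Mcm3, was at least 1.5-fold lower, at 17.0 and 10.4 CPM (background 1.31% lower and 3.12% higher). Pcna was 56.8 and 63.1 CPM in monocytes, and only 15.2% and 10.4% of member UMIs there came from cycling cells.

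The G2/M gene Cdca3 was the lowest of its list in 4 of the 5 classes and the second lowest in the other, and is named after its values were seen. Birc5 was also below the list median in all 5, by 0.010 to 0.48 on the log2 scale against 0.41 to 0.83 for Cdca3. Cdca3 encodes a trigger of mitotic entry that acts in the degradation of Wee1. Its log2 ratio was the lowest of the 22 G2/M genes in monocytes (-1.09, under the filter), CD8 T cells (-0.32), Foxp3 T cells (-0.83) and NK cells (-1.50), and the second lowest after Kif11 in macrophages (-1.80). In CD8 T cells, where the other 21 G2/M genes had ratios above 0, Cdca3 was 40.5 CPM in WT and 32.2 CPM in cKO, 1.26-fold lower (1.04 to 1.52). In Foxp3 T cells, with a list median of 0.01, it was 74.6 and 41.6 CPM, 1.79-fold lower (1.33 to 2.42). The intervals of these ratios treat UMIs of a cell as independent and are too narrow. A cycling Foxp3 T cell held 0.40 Cdca3 UMIs per 2000 in WT and 0.10 in cKO. A cycling NK cell held 0.16 and 0.07. A cycling macrophage held 0.24 and 0.26, and a cycling CD8 T cell 0.16 and 0.15, so the gap was not seen per cycling cell in those classes at these few UMIs. Among CD8 T cells with naive genes under 5 the log2 ratio of Cdca3 in the pooled level was -0.82. Cdca3 lies at chr6:124829547-124833701 on the plus strand (mm10).

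**Figure D5:**
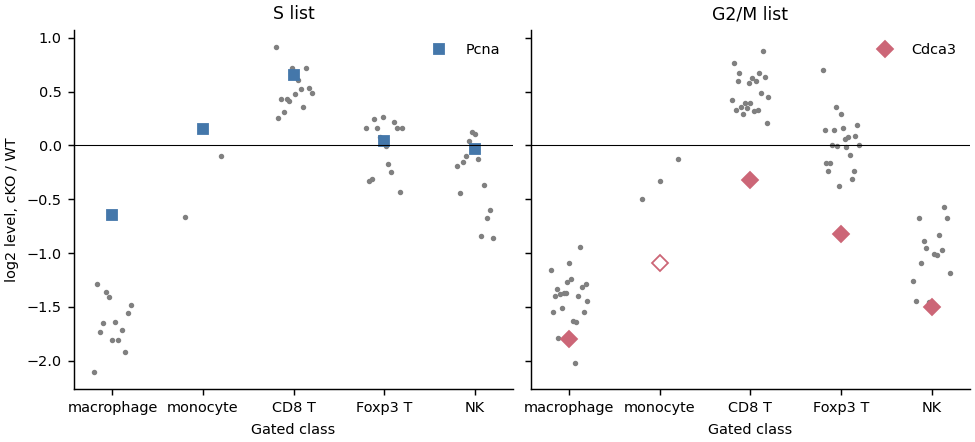
Log2 ratio of the pooled level, cKO over WT (y axis), of each member above the low-value filter in 5 gated classes (x axis), for the S list (left, Pcna as blue squares) and the G2/M list (right, Cdca3 as red diamonds, open where under the filter). Cdca3 lies lowest in 4 classes and second lowest in macrophages, and Pcna lies highest in macrophages at -0.64.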

How the data were processed

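The deposited matrices hold UMI counts per gene and barcode. Per the submitters' processing notes, the authors used Cell Ranger 5.0.1, Seurat 4.0.4 and mm10; the matrix headers name cellranger 5.0.0. The deposited counts were used as filtered by the authors, with 14404 (WT) and 11398 (cKO) barcodes and 128952491 and 121321782 UMIs. Barcodes under 200 genes or over 10% mitochondrial UMIs were left out, and the highest Scrublet scores (scanpy 1.11.5) were removed at 0.8% per 1000 barcodes, 1187 and 779 in all. Gates used marker UMIs per 10000 UMIs (for macrophages, C1q genes at 20 and lineage genes at 5, with T and NK markers each under 2); gate thresholds were set from marker values alone. The naive gene set used 3 genes, and 1 further marker listed for it is not reported here. Counts were summed per library and class, expressed as CPM and compared as log2 ratios with a pseudocount of 1 CPM; genes with a mean of at least 10 CPM were used. Cells were thinned without replacement to 2000 UMIs. Intervals are exact Poisson, Clopper-Pearson or, for ratios of shares, Katz log intervals at 95%. With 1 library per label no test was run. On simulated data for the macrophage comparison (7621 genes, 200 changed by 2- or 4-fold), 98.5% of the changed genes came back within 0.5 on the log2 scale. The simulation drew Poisson counts from a pooled profile, with no variation between cells or libraries. It checks the calculation and does not show how reliable a difference between the libraries is. The members and lists were chosen with earlier results of these data known. All members are described. Genes for the phase check were picked by hand. Otherwise, from other cell cycle lists up to 4 genes per list with the largest UMI totals were eligible for naming. From other genes the 10 with the largest ratio of cycling to other cells were eligible. Antigen receptor, sex-linked, mitochondrial and ribosomal genes were left out of that rule.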

Additional observations from a re-analysis of the deposited data

Results flagged for a closer look

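The cycling share had opposite directions in macrophages and CD8 T cells. The log2 ratio of cKO over WT was -1.93 in macrophages and 0.48 in CD8 T cells. With 1 library per label the difference was not tested, and the CD8 T shares were 19.7% and 19.3% when naive cells were left out.

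Cells in no gate also held cycling cells, at 13.9% in WT (666 of 4788) and 7.55% in cKO (210 of 2783), while neutrophils and mature dendritic cells held 0. In WT, 336 of these 666 cycling cells came from barcodes with both C1q (20 or over) and T cell markers (2 or over), of which 39.5% were cycling; in cKO 44 of 210 did, at 21.3%. Barcodes with melanocytic markers gave 58 and 4 cycling cells.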

How the results depend on the processing

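No paired analysis was possible because each label has 1 library. The macrophage cycling share stayed lower in cKO under every alternative run, with the smallest log2 ratio (-0.90) in cells not thinned, and 32 to 38 members were at least 1.5-fold lower; the macrophage gate without limits on other lineages, chosen after seeing the data, gave 35 and shares of 38.1% and 13.6%. The gap in the S-only share of cycling macrophages ran from -3.78 points with 4 or more genes to 28.8 points in cells not thinned. The unthinned share of cKO macrophages lay within the interval of cKO mature dendritic cells. Cells not thinned reversed the shares of NK cells (log2 ratio 0.68) and monocytes (0.68), where the depth of the libraries differed. In CD8 T cells the count of 13 members became 7 with at most 5% mitochondrial UMIs, 7 with doublets kept, 4 with gate thresholds doubled, 8 with median-of-ratios size factors, 5 with a pseudocount of 10 CPM and 1 without naive cells. The last setting also took the log2 ratio of the CD8 T shares from 0.48 to -0.028, close to level. In NK cells, weighting cells equally left 7 lower members of 17 used, thinning to 4000 UMIs gave a level per cycling cell of 0.53 times WT, and asking for 4 or more genes widened the S-only gap to 39.5 points. In Foxp3 T cells equal weighting left 0 lower members. In monocytes the 1 lower member became 2 with gates halved or doubled, 0 with equal weights, median-of-ratios factors or a pseudocount of 10 CPM, and 11 without the filter. Causes were not tested. For 31 cycling cKO macrophages and 9 cKO monocytes, depth and cell number limit any statement on phase.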
